A study of Mus musculus with 68 samples.

Results

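The second pharyngeal arch (PA2) of wildtype mouse embryos was compared between embryonic day 9.0 (E9.0) and E9.5, using the 8 of 68 libraries that carry the labels wildtype, PA2 and one of those stages. Each stage had 4 libraries, numbered 1, 2, 4 and 5 at E9.0 and 1, 2, 3 and 5 at E9.5. All embryos were of the strain CBA/Ca/J x C57BL/10, and the 8 libraries carried no mutation or treatment by their labels. PA1 and PA2 were taken from 1 embryo each, per the series text, so the PA2 libraries of a stage came from separate embryos and the stages from different embryos. Other libraries of the series serve as comparators: wildtype PA1 (5 libraries at each of the same stages) and PA2 labelled Hoxa2-/- (4 at E9.0 and 5 at E9.5). A dissected arch is a mixture of tissues, and in such bulk RNA fewer cells of a type and less RNA per cell cannot be told apart.

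Pharyngeal arches are outgrowths along the sides of the embryo's throat. Each has a surface of ectoderm, an inner lining of endoderm with pouches, a core of mesoderm that gives head muscle and, near PA2, part of the heart's outflow, and a filling of neural crest cells, the ectomesenchyme, that forms skeleton and connective tissue. PA2 lies next to the outflow tract of the heart and is crossed by an arch artery, so heart muscle and blood can enter a dissection. Primitive red cells of this age carry embryonic globins made in the yolk sac.

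Hoxa2, the homeobox gene that gives PA2 its identity, matched the arch label. It read 22.9, 23.0, 20.2 and 23.1 CPM (read counts scaled per library) in E9.0 replicates 1, 2, 4 and 5, and 42.3, 49.2, 33.0 and 38.5 CPM in E9.5 replicates 1, 2, 3 and 5. The 5 wildtype PA1 libraries lay between 0.0542 and 0.209 CPM at E9.0 and between 0.0683 and 0.721 CPM at E9.5. The 8 libraries held 11923843 to 20453485 recovered reads, which puts 3 reads at 0.14 to 0.248 CPM. Xist exceeded the Y-linked genes in 0 of 4 libraries at E9.0 and in 3 of 4 at E9.5, so the sexes were not balanced between the stages.

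The libraries of a stage were not alike in heart and blood transcripts. The 22 cardiac contractile genes of the table, which encode the sarcomere of heart muscle, summed to 1708, 97.4, 1604 and 1593 CPM in E9.0 replicates 1, 2, 4 and 5. At E9.5 the same sum was 93.9, 113, 1436 and 331 CPM in replicates 1, 2, 3 and 5. E9.0 replicate 2 was thus as low as the low E9.5 libraries and E9.5 replicate 3 nearly as high as the high E9.0 libraries, and the stages overlapped. The erythroid list of 21 genes summed to 5949, 75742, 4085 and 4698 CPM at E9.0 and to 2583, 5520, 2460 and 2500 CPM at E9.5. E9.0 replicate 2 stood above all other libraries by more than an order of magnitude, and E9.5 replicate 2 lay within the range of the other E9.0 libraries. In reads, E9.0 replicate 2 differed from the other libraries of its stage by a chi-square of 92 to 95.9 per degree of freedom, against 7.59 to 14.3 for the other pairs within a stage.

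**Figure D1:**
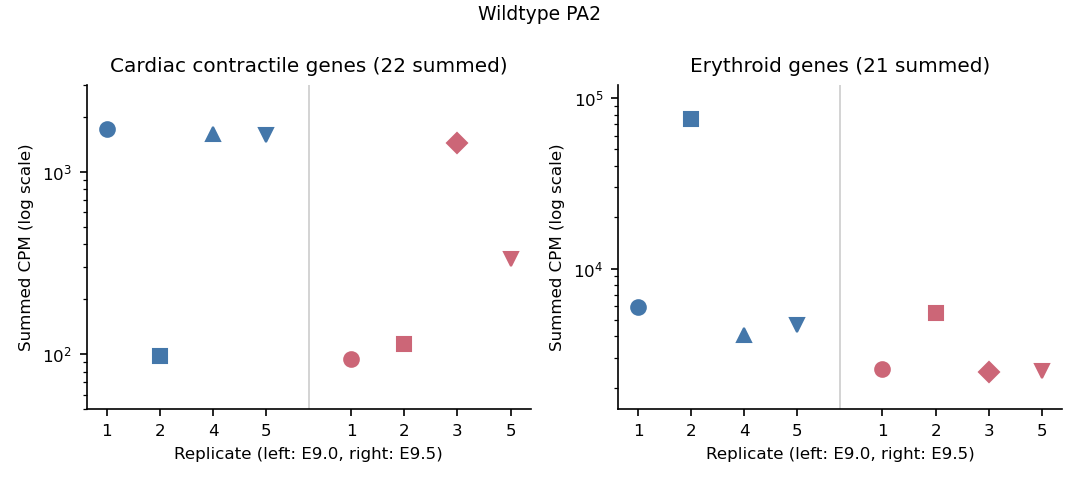
Summed CPM (log axis) of 22 cardiac contractile genes, left, and 21 erythroid genes, right, with 1 point per wildtype PA2 library, E9.0 to the left of the grey line and E9.5 to the right. E9.0 replicate 2 sits low for heart at 97.4 and high for blood at 75742, and E9.5 replicate 3 sits high for heart at 1436, so neither list separates the stages.

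The same sums are given for the other libraries. In wildtype PA1 the heart genes summed to 38.3 to 77.4 CPM at E9.0 and to 16.7 to 297 CPM at E9.5. Wildtype PA2 summed to 30.9 to 141 CPM at E10.0 and to 27.8 to 41.0 CPM at E10.5, so the low E9.5 libraries still lay above the E10.5 range. PA2 labelled Hoxa2-/- ranged from 163 to 1486 CPM at E9.0 and from 30.5 to 931 CPM at E9.5, again with overlap. Erythroid sums of wildtype PA2 were 1819 to 4926 CPM at E10.0 and 5043 to 8370 CPM at E10.5, the latter above 3 of the 4 E9.5 libraries.

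Of 18428 genes tested with limma, 1231 (6.68%) differed between E9.5 and E9.0 at an adjusted p under 0.05. Of these, 747 (4.05%) were higher at E9.5 and 484 (2.63%) lower. The median size of the called differences was 0.53 on the log2(CPM + 1) scale, and 80 higher and 102 lower genes passed a log2 difference of 1. In 879 of the called genes the 4 values of one stage did not overlap the 4 of the other, where 12.7% of all tested genes had no overlap. A single library weighed on each direction. E9.0 replicate 2 was the highest of the 8 libraries in 232 of the 484 lower genes, and E9.5 replicate 5 in 473 of the 747 higher genes. Without E9.0 replicate 2 the counts were 544 higher (2.95%) and 529 lower (2.87%), of which 472 and 257 were shared with the counts above. Without E9.5 replicate 5 they dropped to 236 and 134. Leaving out E9.0 replicate 4 or E9.5 replicate 1 gave 729 and 781 called genes in all.

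The largest rises included transcription factors, a guidance receptor and a matrix gene. Barx1, a homeobox gene of arch mesenchyme and tooth and joint formation, read 4.17, 2.03, 3.48 and 2.49 CPM in E9.0 replicates 1, 2, 4 and 5 and 53.2, 37.5, 6.50 and 114 CPM in E9.5 replicates 1, 2, 3 and 5. Every E9.5 library lay above every E9.0 library, and E9.5 replicate 3 was the closest to them. The means were 17.4-fold apart, with a log2 difference of 3.21 ± 0.55 (SE; limma adjusted p 0.00011). Epha3, an Eph receptor of cell contact and guidance, went from 6.13, 5.29, 5.79 and 2.65 CPM to 40.6, 41.4, 13.6 and 63.6 CPM (2.64 ± 0.38, adjusted p 6e-06). Dlx3, a distal-less homeobox gene, went from 8.91, 8.55, 6.73 and 5.90 CPM to 62.1, 47.3, 20.3 and 82.2 CPM (2.52 ± 0.33, adjusted p 1.1e-06).

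The next in size were a matrix gene and a pair of related developmental genes. Fbln5, which encodes the elastic-fibre protein fibulin-5, read 1.91, 1.98, 2.70 and 2.27 CPM at E9.0 and 18.1, 15.1, 5.94 and 24.8 CPM at E9.5 (2.26 ± 0.34, adjusted p 1.2e-05). Mab21l2 read 4.53, 5.67, 3.92 and 3.41 CPM, then 11.6 to 36.9 CPM, lowest in replicate 3 and highest in replicate 5 (2.12 ± 0.31). Its paralogue Mab21l1 read 3.19, 3.15, 3.81 and 1.19 CPM, then 19.1, 15.5, 6.15 and 24.2 CPM (2.09 ± 0.37). Adjusted p-values from limma were 7.9e-06 for Mab21l2 and 0.00023 for Mab21l1. Both are nuclear proteins known for roles in eye development.

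The remaining 6 of the 12 largest rises were smaller. Tmem132c, a membrane protein gene, averaged 21.0 ± 4.14 CPM (SD, n = 4) at E9.0 and 71.3 ± 15.7 at E9.5. Lrrn1, a leucine-rich repeat membrane protein, averaged 14.7 ± 1.12 and 47.5 ± 9.52 CPM, and the potassium channel gene Kcna5 averaged 8.97 ± 2.47 and 27.3 ± 3.72 CPM. The collagen receptor gene Ddr2 averaged 5.83 ± 1.52 and 19.3 ± 7.52 CPM, and the TEAD cofactor gene Vgll3 averaged 2.69 ± 0.918 and 9.32 ± 0.924 CPM. Grhl3, a transcription factor of surface ectoderm, averaged 1.30 ± 0.462 and 6.03 ± 2.87 CPM.

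**Figure D2:**
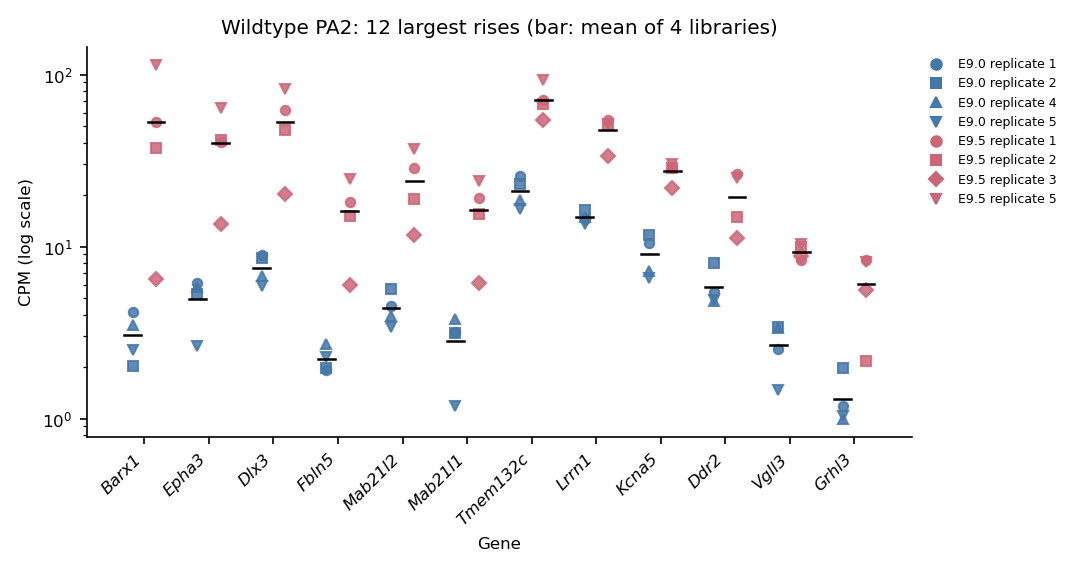
CPM (log axis) of the 12 genes with the largest called rises, 1 point per wildtype PA2 library, E9.0 in blue and E9.5 in red, with the mean of 4 libraries as a bar and the marker shape giving the replicate number. E9.5 replicate 3 was the lowest E9.5 library in 10 of the 12 genes and replicate 5 the highest in 9.

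The 12 rises were picked as the largest called ones without overlap, so other fits of the same libraries were likely to call them and are no new test. All 12 rises were called without E9.0 replicate 2 and without E9.5 replicate 3 (2.89% of all genes were called higher there). They were also called with the heart and blood levels as covariates (2.5%), with a sex covariate (5.32%), in edgeR (4.04%) and in a limma fit of the 8 libraries alone (2.08%). Without E9.5 replicate 5 (1.28%), 11 were called. E9.5 replicate 3, the library rich in heart transcripts, was the E9.5 library nearest to E9.0 in most of them, and the part of its heart transcripts in this was not tested. At E10.5 the levels of wildtype PA2 were higher again for Epha3 (127 to 198 CPM), Mab21l2 (75.8 to 80.2) and Tmem132c (116 to 160), while Barx1 (50.8 to 62.6) lay within its E9.5 range.

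Of the 34 ectomesenchyme genes, 6 rose and none fell (17.6%; median log2 difference 0.35, against 0.01 over all genes tested). Msx1, a homeobox gene of arch mesenchyme, read 42.4 to 57.7 CPM at E9.0 and 95.8 to 150 CPM at E9.5 (1.22 ± 0.20). Foxd2, a forkhead gene, averaged 12.1 ± 2.21 and 28.2 ± 2.98 CPM, and Prrx1, a homeobox gene of limb and facial mesenchyme, rose by 0.72 on the log2 scale. Twist2 and Zfp703 were the others called besides Barx1. Twist1, a factor needed for ectomesenchyme, stood at 35.3 to 42.5 CPM at E9.0 and at 36.4 to 55.4 CPM at E9.5 (log2 difference 0.23, adjusted p 0.42).

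Among 13 genes of the endothelin and Dlx pathway, which sets the dorsal and ventral pattern of an arch, 6 rose and 1 fell (53.8%; median 0.59). Besides Dlx3, the called rises were Dlx5 (23.1 ± 10.6 to 49.2 ± 12.6 CPM), Dlx1, Dlx2, Dlx4 and Dlx6os1. Dlx6os1 read 4.94, 3.53, 7.17 and 2.81 CPM and then 27.6, 26.8, 6.91 and 39.7 CPM. It lies antisense to Dlx6, and since the strand used in counting is not given in the sources used here, reads of the 2 genes cannot be told apart. Mef2c, a target of endothelin signalling and also a heart and muscle factor, fell from 149, 77.9, 141 and 121 CPM to 38.8, 57.2, 111 and 36.8 CPM (-1.10 ± 0.31). The libraries highest in Mef2c, replicates 1, 4 and 5 at E9.0 and replicate 3 at E9.5, were high in cardiac transcripts. E9.5 replicate 5, with a cardiac sum of 331 CPM, was the lowest in Mef2c. The part of heart tissue in the fall of Mef2c was not tested. Ednra, the endothelin receptor, was not called and read 38.1 to 57.9 and 39.5 to 59.1 CPM.

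In the Hox list 2 of 11 genes rose and 1 fell (27.3%). Hoxa2 rose 1.83-fold (0.83 ± 0.18, limma adjusted p 0.0023), and the antisense transcript Hoxaas2, which shares the locus, rose by 0.71; their reads too may be mixed. Hoxb1, a hindbrain and early arch gene, read 5.97, 1.87, 7.67 and 2.65 CPM at E9.0 and 1.59, 0.827, 1.98 and 0.933 CPM at E9.5, where the highest E9.5 library overlapped the lowest E9.0 library (-1.13 ± 0.27, adjusted p 0.0064). The partner homeobox genes of the TALE family included 3 rises in 9 (33.3%), all small, such as Meis2 from 120 ± 6.64 to 144 ± 7.26 CPM. In that list 1 gene was called higher without E9.0 replicate 2 and 0 with the heart and blood levels as covariates. Over all genes tested, 747 were called higher in the fit of all libraries, 544 without that library and 461 with the covariates. The TALE list median was 0.26, and it was 0.25 without that library and 0.21 with the covariates.

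The core mesoderm and muscle list had 7 rises and 1 fall in 18 genes (44.4%; median 0.29). With the heart and blood levels as covariates 1 gene was called higher and 0 lower, while the list median was 0.33. Over all genes tested, 2.5% were called higher with those covariates, against 4.05% without them. The part of heart and blood in the other calls was not tested further. Lhx2 read 3.90 to 10.7 CPM at E9.0 and 15.7 to 25.2 CPM at E9.5, with no overlap (1.33 ± 0.28, adjusted p 0.0023). Msc, a repressor of muscle differentiation, Myf5, a myogenic determination factor, Meox2, Eya4, Ebf1 and Ebf3 were also called higher. Myf5 itself was low, at 1.08 to 1.66 CPM and then 1.98 to 5.29 CPM, while Myod1 had values of at most 0.104 CPM and Myog had 0 reads in all 8 libraries. Tbx1 and Tcf21, other core mesoderm genes, were not called (adjusted p 0.43 and 0.64).

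In the surface ectoderm list 5 of 21 genes rose and none fell (23.8%). Trp63, the stem cell factor of stratified epithelia, read 14.4 to 19.6 CPM at E9.0 and 28.2 to 59.8 CPM at E9.5 (1.41 ± 0.22, adjusted p 1.7e-05). Krt14, a basal keratin, was low at 0.206 to 0.855 CPM and then 1.12 to 2.48 CPM. In the pouch list 2 of 15 fell and none rose (13.3%). Ripply3, a partner of Tbx1 in pouch endoderm, read 21.1, 33.0, 19.9 and 28.4 CPM, then 8.59, 10.8, 10.9 and 7.62 CPM (-1.33 ± 0.20, adjusted p 1e-05). Nkx2-6, a pharyngeal endoderm homeobox gene, averaged 80.7 ± 22.8 and 39.1 ± 7.82 CPM, and Pax1, a pouch marker, was not called at 59.8 to 84.6 and 69.9 to 74.2 CPM.

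In the signalling lists, calls fell on ligands, receptors and targets. Of 37 Wnt pathway genes 8 rose and 1 fell (24.3%; median 0.40). The ligands Wnt4 (5.45 ± 1.76 to 13.3 ± 1.68 CPM), Wnt5a (41.8 to 60.3 CPM, then 79.2 to 103 CPM), Wnt6 and Wnt7b were called higher, as were the inhibitors Nkd2 and Notum and the nuclear factors Lef1 and Tcf7l1. The antagonist Sfrp4 fell, at 0.271 to 3.21 and then 0.0827 to 0.762 CPM. Among 22 FGF pathway genes the receptor Fgfr2 rose from 60.0 ± 8.22 to 97.9 ± 21.6 CPM. Fgf8, the main epithelial ligand of the arches, fell from 33.5, 30.3, 33.8 and 36.6 CPM to 20.8, 21.3, 17.9 and 10.3 CPM (-0.94 ± 0.21, adjusted p 0.0037). Etv1, an FGF-responsive factor, fell with it, from 29.9 ± 2.54 to 20.4 ± 3.73 CPM.

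Retinoic acid, Notch, Hedgehog and BMP genes each gave 1 or 2 calls, shares of 12.5%, 6.67%, 8.33% and 9.09% against 6.68% of all genes tested. Rarg, a retinoic acid receptor, rose from 13.6 ± 2.17 to 25.8 ± 3.45 CPM, and Cyp26b1, an enzyme that degrades retinoic acid, fell from 6.41 to 11.3 CPM to 2.13 to 4.63 CPM. Heyl, a Notch target, rose from 8.88 ± 2.08 to 24.0 ± 4.37 CPM (1.35 ± 0.25). Gas1, a Hedgehog co-receptor, rose from 79.6 ± 4.70 to 131 ± 19.2 CPM, and all 12 Hedgehog genes had positive differences, 1 of them called. Bmpr1b, a BMP receptor, rose, and Id1, a BMP target, fell from 176 ± 15.7 to 128 ± 16.5 CPM.

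Matrix, cartilage and guidance lists held more rises than falls, though several calls were lost without E9.0 replicate 2. Over all genes tested, the number called higher also dropped without it, from 747 to 544. The list medians without it were 0.42 for matrix, 0.35 for skeletal fate and 0.30 for guidance genes, against 0.44, 0.28 and 0.36 with it. Of 36 matrix genes 8 rose and 2 fell (27.8%; median 0.44), and 4 were called higher without that library. Col3a1, a fibrillar collagen, read 81.2, 37.9, 66.7 and 103 CPM at E9.0 and 162, 108, 150 and 508 CPM at E9.5, with replicate 5 far above the others. Has2, which makes hyaluronan, fell from 121 to 204 CPM to 82.2 to 137 CPM, and Hapln1, which links it to proteoglycans, fell from 68.3 to 126 CPM to 39.0 to 66.7 CPM. Sox9, the cartilage factor, read 52.9, 39.2, 34.8 and 35.3 CPM at E9.0 and 68.2, 78.7, 60.4 and 78.0 CPM at E9.5 (0.81 ± 0.19, adjusted p 0.0059). Trps1 and Col9a1 completed 3 rises in the 9 skeletal fate genes. In that list 1 gene was called without E9.0 replicate 2 and 0 with the heart and blood covariates. With those covariates the list median was 0.35, and 461 of all genes tested were called higher. Besides Epha3, Sema5a, Epha7, Unc5c and Efna5 made 5 rises in 30 guidance genes, with no fall, and 2 guidance genes were called higher without E9.0 replicate 2.

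The growth and metabolic lists differed in their share of called genes. Cdkn1a, the p21 cell cycle inhibitor, rose from 5.36 to 9.49 CPM to 9.55 to 16.1 CPM and Cdk6 from 15.8 ± 3.19 to 27.0 ± 4.49 CPM, the only 2 calls in 34 cell cycle genes (5.88%, near the share over all genes tested). Glycolysis and hypoxia genes had 3 falls in 27 (11.1%): Tpi1, Pgk1 and Ldha, the last from 6140 ± 365 to 4311 ± 716 CPM. Of 85 cytosolic ribosomal protein genes 17 fell (20%; median -0.27), against 2.63% of all genes tested. An example is Rps7, from 190 ± 36.0 to 144 ± 15.8 CPM, where ribosomal genes have many near-identical copies. Without E9.0 replicate 2, 1 of these 85 was called lower, and with the heart and blood covariates 21. In edgeR 28 were called lower and with a sex covariate 60, where 723 and 959 of all genes tested were. Igf2bp2, Igf2bp3 and Dnmt3a, from the list on developmental timing, were called higher, and none of 19 endothelial, 14 neuron or 18 imprinted genes was called.

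**Figure D3:**
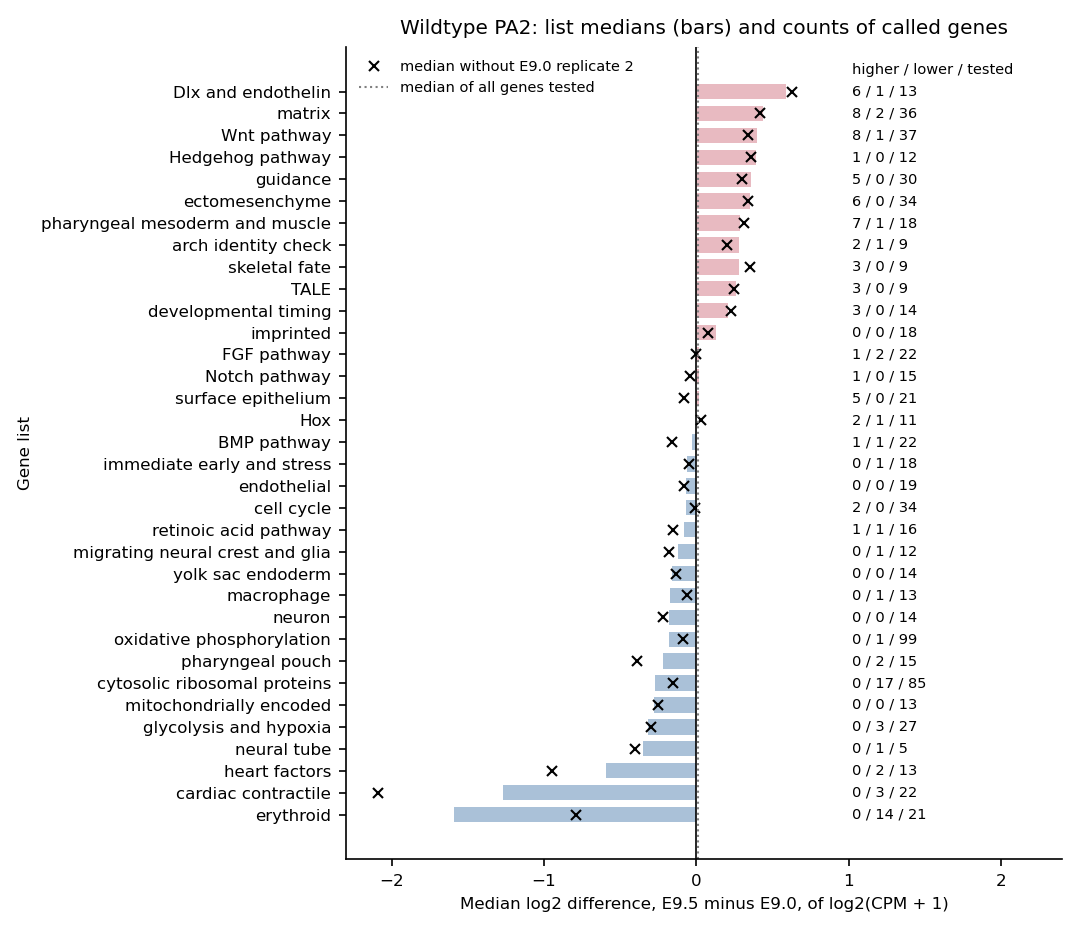
Median log2 difference (E9.5 minus E9.0) of each gene list in wildtype PA2 as a bar, the same median without E9.0 replicate 2 as a cross, and the counts of genes called higher, lower and tested at the right. The Dlx and endothelin list has the highest median at 0.59, while the cardiac median goes from -1.27 to -2.09 and the erythroid median from -1.59 to -0.79 without that library.

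Heart genes were lower on average at E9.5 but mostly not called. All 22 contractile genes had negative differences (median -1.27), and 3 were called, Myl2, Myl3 and Nebl (13.6%). Actc1, cardiac actin, read 409, 9.03, 341 and 361 CPM at E9.0 and 9.20, 12.9, 287 and 71.3 CPM at E9.5 (-1.86 ± 0.99, adjusted p 0.24). Myh7, a cardiac myosin heavy chain, read 289, 10.4, 279 and 246 CPM and then 10.7, 11.2, 243 and 50.9 CPM (-1.75 ± 0.84, adjusted p 0.18). Myl7, the atrial light chain, read 198, 4.33, 160 and 189 CPM and then 2.15, 5.54, 148 and 26.4 CPM. In each gene E9.0 replicate 2 lay among the low libraries and E9.5 replicate 3 among the high ones. Without E9.0 replicate 2 the median was -2.09 and 17 of the 22 were called lower.

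Of 13 heart factor genes tested, 10 had negative and 3 positive differences (median -0.59). Of these, 2 were called lower (15.4%), against 2.63% of all genes tested. With the heart and blood covariates the list median was 0.41, and 1 gene was called lower. Some of the factors were high in the heart-rich libraries. Nkx2-5, an early heart factor, read 23.2, 4.65, 20.7 and 17.2 CPM and then 3.13, 2.89, 15.5 and 4.77 CPM (adjusted p 0.051). Gata4 and Tbx20 also tracked the heart-rich libraries and were not called. Smyd1, a muscle methyltransferase, read 89.1, 6.89, 94.6 and 41.8 CPM and then 3.92, 2.81, 13.7 and 16.1 CPM (-2.32 ± 0.73, adjusted p 0.04). Here E9.5 replicate 3 was low although its contractile sum was high. Smyd1 lost its call in 6 of the 8 fits that left out 1 library and with the heart and blood covariates (adjusted p 0.095). Hey2, a ventricular and vascular factor, fell with no overlap, from 13.6 ± 2.16 to 7.19 ± 1.27 CPM (adjusted p 0.0057).

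Red cell genes were called lower more often, and most of these calls were lost without E9.0 replicate 2. Of 21 erythroid genes 14 were called lower (66.7%; median -1.59), against 7 without E9.5 replicate 3. Hbb-bh1, an embryonic beta-like globin, read 1232, 14894, 1031 and 949 CPM at E9.0 and 349, 1093, 467 and 427 CPM at E9.5 (-1.97 ± 0.55, adjusted p 0.02). Hba-x, the embryonic alpha-like globin, read 1307, 15513, 801 and 993 CPM and then 513, 1116, 443 and 485 CPM (-1.76 ± 0.54, adjusted p 0.036). Hbb-y read 1414, 22642, 885 and 1155 CPM and then 721, 1564, 532 and 710 CPM (adjusted p 0.072). E9.0 replicate 2 was highest in all of these. E9.5 replicate 2 lay inside the range of the other E9.0 libraries for Hbb-bh1 and Hba-x and above it for Hbb-y. Hba-a1 and Hba-a2, like Hbb-bs and Hbb-bt, are near-identical copies whose reads may be split by the counting.

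Without E9.0 replicate 2 the erythroid median was -0.79 and 2 genes were called lower, the red cell factors Klf1 and Tal1. Klf1 read 26.3, 164, 17.7 and 13.5 CPM and then 4.53, 9.59, 5.69 and 6.53 CPM, with no overlap even when that library was set aside (-1.40, adjusted p 0.041). Tal1 went from 9.42, 51.5, 8.61 and 6.22 to 2.61, 4.71, 3.96 and 3.06 CPM (-0.99 without it, adjusted p 0.035). Lyz2, a macrophage gene, read 9.99, 31.0, 0.331 and 2.81 CPM at E9.0 and 0.259 to 1.32 CPM at E9.5, and lost its call without replicate 2 (adjusted p 0.15).

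Proximal upstream sequence is shown for 1 blood gene, 1 heart gene and 2 of the largest rises, to set the sequence types side by side. Each stretch runs 5′ to 3′ in the gene's direction over 100 bases, from 140 to 41 bases before the RefSeq start (GRCm38.p6), and lies before all GENCODE M21 transcripts of its gene. Capitals mark CACCC and CCAAT on either strand, the letters known from globin promoters.
Hbb-y (chr7:103853248-103853347, minus strand): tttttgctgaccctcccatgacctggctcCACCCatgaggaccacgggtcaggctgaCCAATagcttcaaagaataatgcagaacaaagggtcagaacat
Myh7 (chr14:54994667-54994766, minus strand): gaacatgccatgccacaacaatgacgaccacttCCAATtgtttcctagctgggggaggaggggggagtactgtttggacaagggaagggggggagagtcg
Barx1 (chr13:48662896-48662995, plus strand): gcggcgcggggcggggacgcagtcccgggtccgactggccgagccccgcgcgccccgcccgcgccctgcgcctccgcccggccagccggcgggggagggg
Epha3 (chr16:63864216-63864315, minus strand): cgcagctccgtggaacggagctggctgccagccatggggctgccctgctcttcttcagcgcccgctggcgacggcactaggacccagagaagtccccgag
Hbb-y held both motifs, at 111 and 83 bases before the start, and Myh7 held CCAAT at 107, while Barx1 and Epha3 held neither in this window. Over the 32851 promoters of the RefSeq table, 27.3% of such windows held CACCC, 18.7% CCAAT and 4.7% both. Barx1 had 19 CpG dinucleotides and Epha3 8, against 1 in Hbb-y, 2 in Myh7 and a median of 2 over all windows. Of the 99 named genes 68 had an entry in that table.

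Among the 12 largest falls outside the heart and blood lists, E9.0 replicate 2, the library rich in blood transcripts, was the highest of the 8 libraries in 10. The part of blood in these falls was not tested beyond the fits named here. Hebp1, a haem-binding protein, read 10.2, 59.2, 10.3 and 6.76 CPM at E9.0 and 1.17, 6.53, 0.813 and 1.09 CPM at E9.5 (-2.47 ± 0.62, adjusted p 0.0092). Blvrb, biliverdin reductase B, read 23.3, 261, 17.4 and 18.6 CPM and then 8.82, 16.1, 10.4 and 9.38 CPM. Cited4, Mrap, Slc38a5, Gmpr and Csf2rb were also highest in that library, and without it each of these 7 lost its call, with log2 differences such as -1.82 for Hebp1 and -0.98 for Gmpr. Of the 12 falls 11 kept at least 0.5 of their log2 difference without it. Foxh1, a nodal pathway factor, Tmem56, Car2, Ret and Mybpc1 were called without it. Of the 12, 4 were called with the heart and blood levels as covariates, and 4 in the fit of the 8 libraries alone.

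**Figure D4:**
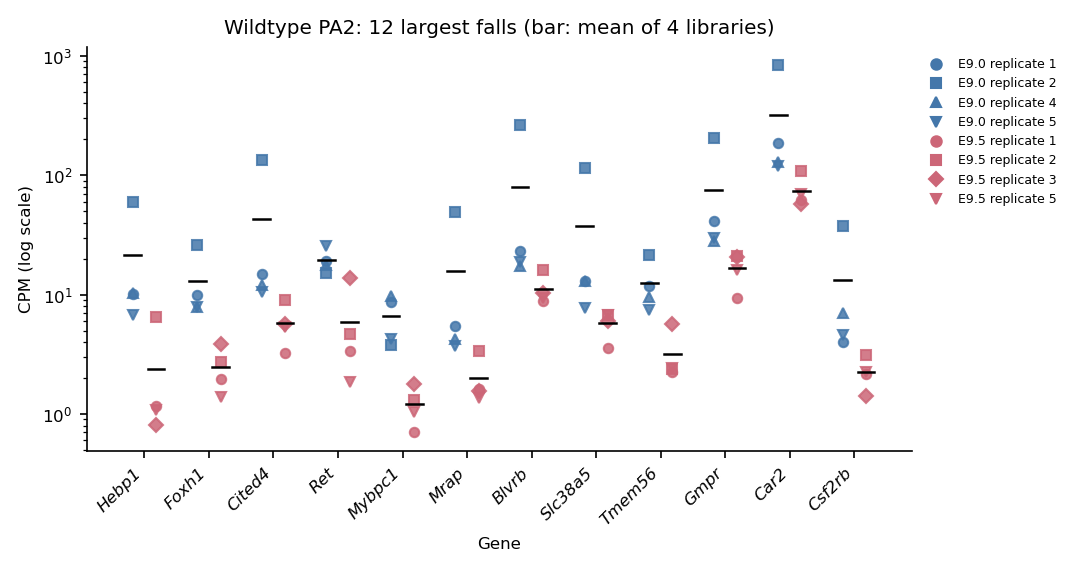
CPM (log axis) of the 12 genes with the largest called falls outside the heart and blood lists, 1 point per wildtype PA2 library, with means as bars and marker shapes for replicates. The E9.0 square, replicate 2, is the highest point in 10 of the 12 genes, as for Blvrb at 261, and not in Ret or Mybpc1.

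Ret and Mybpc1 were not highest in the library rich in blood transcripts. Ret, the GDNF-family receptor of neural crest and nerve development, read 19.2, 15.1, 17.7 and 25.4 CPM at E9.0 and 3.36, 4.71, 13.8 and 1.87 CPM at E9.5 (-1.81 ± 0.31, adjusted p 0.00012). Mybpc1, a skeletal muscle myosin-binding protein, read 8.65, 3.79, 9.71 and 4.22 CPM and then 0.700, 1.32, 1.78 and 1.04 CPM (-1.71 ± 0.25). A further set, chosen after values were seen, holds the genes called lower in the fit of all libraries, without E9.0 replicate 2 and with the heart and blood covariates (1.98% called lower there), 135 genes in all, beside 279 called higher in the same 3 fits. It includes Mmp9, a matrix protease, at 6.82 to 7.50 and then 1.16 to 4.88 CPM. It also includes Upp1, a uridine phosphorylase, at 12.4 to 16.3 and then 2.59 to 7.67 CPM, and Gfra2, a co-receptor of Ret, at 6.41 to 10.3 and then 2.28 to 5.38 CPM. The set also holds Car2, a carbonic anhydrase of red cells, at 830 CPM in E9.0 replicate 2. Sox10, a factor of migrating crest and glia, was not called (limma adjusted p 0.074).

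Wildtype PA1 showed how much of this was shared between arches. The stage change differed between PA2 and PA1 for 1891 genes (10.3%), of which 856 (4.65%) were more positive and 1035 (5.62%) more negative in PA2. That fit takes the libraries as independent, but PA2 and PA1 of 8 embryos entered it together. Both arches of an embryo deviated from their group means with correlations of 0.29 to 0.37 at E9.0 and of 0.47, -0.08, 0.02 and 0.48 at E9.5. With the embryo as a block, in the 8 embryos with both arches, 89 genes were called, 72 of them in the same direction as in the fit above, and 5130 had an unadjusted p under 0.05. Of the 12 largest PA2 rises, 7 differed between the arches without the block and 7 with it. The 12 were chosen by their PA2 change, which is part of both tests, so these counts are no independent sign of a difference between arches. In PA1 itself 2 of the 12 were called higher, where 3.77% of all genes were called higher and 2.97% lower. Epha3 stood at 19.3 to 28.0 CPM in PA1 at E9.0, above all E9.0 PA2 libraries, and at 23.0 to 37.2 CPM at E9.5 (difference of changes 2.34 ± 0.51, limma adjusted p 0.0065). Tmem132c stood at 49.3 to 66.1 and 38.6 to 77.5 CPM in PA1 (1.79 ± 0.26, adjusted p 5.3e-05). Barx1 rose in both arches, in PA1 from 30.3 ± 13.7 to 167 ± 51.4 CPM (SD, n = 5), and the changes were not shown to differ (0.75 ± 0.73, adjusted p 0.53).

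Among the changes more negative in PA2, Gbx2, a homeobox gene, read 11.4 to 13.5 and then 6.62 to 7.31 CPM in PA2, and 0.974 to 2.11 and then 1.98 to 6.67 CPM in PA1 (-2.03 ± 0.32, adjusted p 0.00017, and 0.015 with the embryo block). Ribosomal protein genes fell in PA2 (17 of 85) and rose in PA1 (10 of 85). Between the arches 65 of 85 differed, against 0 with the embryo block, which called 89 of all genes tested. With so few calls in all, the 0 cannot show whether the difference was lost. Rps7, Rps25, Rps3a2 and Rpl26 differed by -0.66, -0.59, -0.66 and -0.64 without the block and by -0.67, -0.64, -0.64 and -0.61 with it. L1cam, a neural cell adhesion gene on the X chromosome, gave the next largest more positive difference at 2.13 ± 0.57, from a fall in PA1 and no call in PA2. Hspb1, a small heat shock protein gene of heart and muscle, gave -1.94 ± 0.57 (adjusted p 0.16 with the embryo block), and in PA2 it was high in the libraries high in cardiac transcripts.

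PA2 labelled Hoxa2-/- gave a second set of libraries at the same stages that shares none with wildtype. In it Hoxa2 transcripts were not lower than in wildtype, at 16.8 to 36.3 CPM at E9.0 and 48.6 to 102 CPM at E9.5, so the label is used only as a label. Its own stage comparison called 3119 genes (16.9%), 1840 higher (9.98%) and 1279 lower (6.94%). That count was 5 in a limma fit of those libraries alone and 0 with the replicate number as a block, so the overlaps given next hold for the fit over all libraries. Of the 747 genes higher in wildtype, 667 had a positive difference there and 316 were called (42.3%). Of the 484 lower in wildtype, 455 were negative and 166 called (34.3%). The 482 genes called the same way in both made up 39.2% of the wildtype calls and 15.5% of the others, and 4 genes were called in opposite directions.

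Of the 12 largest wildtype rises 11 were called higher with the label Hoxa2-/-, the exception being Grhl3 (0.80, adjusted p 0.15). Epha3 read 0.852 to 8.87 CPM and then 18.1 to 92.2 CPM (2.92 ± 0.36), and Mab21l1 0.341 to 4.11 CPM and then 11.5 to 51.4 CPM (2.88 ± 0.35). Of the 12 largest falls 2 were called lower, Foxh1 and Ret, with Ret at 13.3 to 43.2 CPM and then 1.22 to 8.76 CPM. Erythroid sums of these libraries lay at 2191 to 4582 and 942 to 3835 CPM, with no library like wildtype E9.0 replicate 2. In the direct test of the difference between the labels 6 genes passed (0.0326%), while 2003 had an unadjusted p under 0.05.

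**Figure D5:**
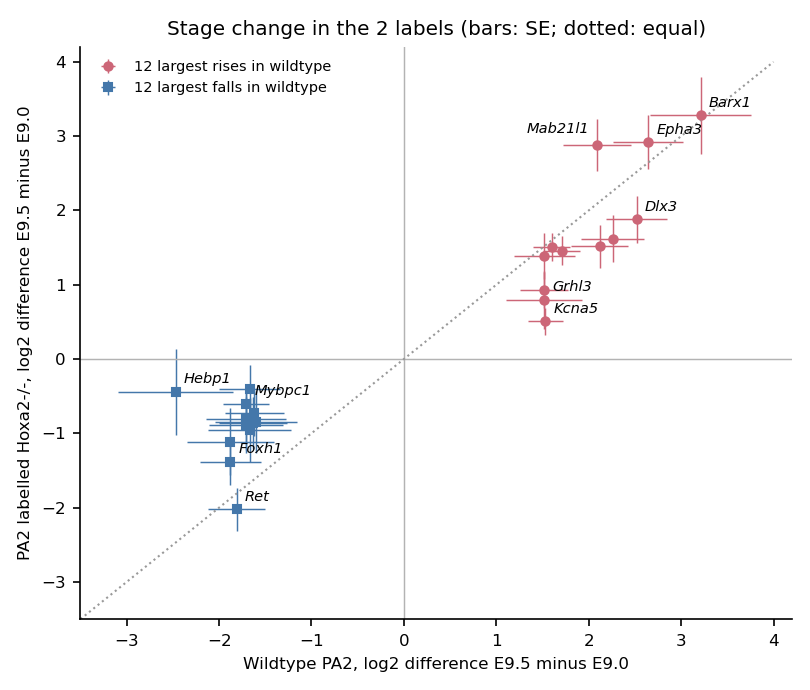
Log2 difference between E9.5 and E9.0 in wildtype PA2 (horizontal) and in PA2 labelled Hoxa2-/- (vertical) for the 12 largest wildtype rises and 12 largest wildtype falls, with standard errors as bars and a dotted line of equal change. Rises spread along the line, up to Barx1 at 3.21 and 3.28, while most falls lie nearer 0 in the labelled libraries, as Hebp1 at -2.47 and -0.44.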

How the data were processed

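Polyadenylated RNA of hand-dissected, frozen arches was turned into cDNA (SMART-seq v4, ultra low input) and Nextera XT libraries, per the labels' protocols. With PCR and no molecular identifiers, the floors of 3 reads cover counting error only. The SDs and SEs come from the spread between libraries. The submitters' processing notes name bcl2fastq 2.18, TopHat2 2.1.1, R 3.3.2 and the build mm10; the counting program, annotation and strand are not given in the sources used here. The authors deposited a signal per gene, TMM-scaled CPM rather than plain counts, and 100% of values came out as whole reads within 0.01 reads; the value is called CPM here. Symbols and coordinates came from GENCODE M21.

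Genes with at least 1 CPM in at least 3 libraries were tested, 18428 of 21948. limma 3.58.1 in R 4.3.3 was fitted to log2(CPM + 1) with 1 mean per group over 68 libraries in 16 groups, a prior variance that follows the mean, and two-sided p-values adjusted by Benjamini and Hochberg over all genes tested, with 0.05 as threshold. Log2 differences understate the change of low genes. Named genes were the 12 largest called rises and falls of at least 5 CPM without overlap and outside the heart and blood lists, the 6 highest heart and 6 highest blood genes, up to 4 called members of each other list and up to 3 each way of the PA2 and PA1 difference; genes named otherwise were chosen after their values were seen. Some genes that this rule picks are not reported here. The members and lists were chosen with earlier results of these data known. edgeR 4.0.16 on recovered reads was an alternative. It left out 1 PA1 library (labelled Hoxa2-/-, E9.0 replicate 3) that an earlier record did not list as recovered, although its values also came out as whole reads. The scripts were tested on simulated data. Replicate numbers did not pair the stages: same-numbered libraries deviated with correlations of -0.26, 0.20 and -0.02.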

Additional observations from a re-analysis of the deposited data

Results flagged for a closer look

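Within groups of 4 libraries, a library is listed here when its gap to the nearest other exceeded Dixon's 95% critical value; chance alone gives about 1 in 20 groups. E9.0 replicate 2 was such a library at the high end of erythroid genes: 22642 CPM of Hbb-y, 15513 of Hba-x, 14894 of Hbb-bh1, 9778 of Hba-a1, 9621 of Hba-a2 and 680 of Hbb-bs. Among the largest falls outside the heart and blood lists, this library stood high likewise: 830 CPM of Car2, 261 of Blvrb, 204 of Gmpr, 134 of Cited4, 115 of Slc38a5, 59.2 of Hebp1, 49.3 of Mrap, 37.5 of Csf2rb and 26.1 of Foxh1. Its erythroid sum was 75742 CPM. The same library was set apart at the low end of heart genes, with 9.03 CPM of Actc1, 10.4 of Myh7 and 31.4 of Tnni1, and a cardiac sum of 97.4 CPM.

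E9.5 replicate 2 stood high for blood within its stage, with 1116 CPM of Hba-x, 1093 of Hbb-bh1 and an erythroid sum of 5520 CPM. It also stood high for Hebp1 at 6.53 CPM and Mrap at 3.39. E9.5 replicate 3 stood high for Myl7 at 148 CPM, Tnni1 at 131 and Tmem56 at 5.64, and low for Lrrn1 at 33.4. E9.0 replicate 4 stood low for L1cam at 3.75 CPM.

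The stage change differed between PA2 and PA1 by the limma interaction test for the 14 genes listed here. Of these, 7 were among the 12 largest PA2 rises and 3 among the 12 largest PA2 falls, chosen by a change that is part of this test. L1cam, Rarres1, Gbx2 and Hspb1 were picked by this same test, so their passing it was fixed in advance. With the embryo as a block, Rarres1, Hspb1, Ret and Gmpr lost their calls (adjusted p 0.078, 0.16, 0.077 and 0.071) and the other 10 kept theirs. It was more positive in PA2 by a log2 difference of 2.34 for Epha3, 2.13 for L1cam, 1.92 for Rarres1, 1.79 for Tmem132c, 1.62 for Dlx3, 1.61 for Kcna5, 1.47 for Mab21l2, 1.44 for Vgll3 and 1.10 for Lrrn1. It was more negative by -2.03 for Gbx2, -1.94 for Hspb1, -1.86 for Mybpc1, -1.63 for Ret and -1.56 for Gmpr.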

How the results depend on the processing

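The count of genes changed in wildtype PA2, 1231, became 1939 with a sex covariate, 465 in a fit of the compared groups alone, and 85 with the replicate number as a block, a number that does not pair the stages; leaving out 1 library gave 370 to 1604. edgeR called 1468, of which 50.7% were higher, against 60.7% in limma. The count that differed between PA2 and PA1, 1891, became 3042 with heart and blood levels as covariates, 857 with only the compared groups and 89 with the embryo as a replicate block, where the pairing is real, and 428 to 3164 without 1 library. The lowest values came without wildtype PA1 E9.5 replicate 3 (428), PA2 E9.5 replicate 5 (439) and PA1 E9.5 replicate 1 (474). The count in PA2 labelled Hoxa2-/-, 3119, became 5 with only the compared groups (3101 at an unadjusted p under 0.05) and 0 with the block (1930 unadjusted), and 931 to 4295 without 1 library. The 6 genes that differed between labels became 3 at a pseudocount of 0.25 or a filter of 5 CPM, 12 at a pseudocount of 5 or with the covariates, and 0 with only the compared groups (1139 unadjusted) or the block (378 unadjusted), and 1 to 97 without 1 library, 97 without wildtype E9.0 replicate 2. The causes were not tested. Of the results for named genes, 77 crossed the threshold under at least 1 alternative and 24 kept both side and direction under all. No named result that was called changed sign, but 12 uncalled ones did: L1cam to -0.10 with the replicate block, and with the covariates Actc1 to 0.34, Myh7 to 0.14, Tnni1 and Myl7 to 0.05, Myh6 to 0.46, Tnnt2 to 0.29, Hbb-y to 0.06, Hba-a1 to 0.19, Hba-a2 to 0.15, Hbb-bs to 1.07 and Hspb1 to 0.07. The covariates were the mean levels of the cardiac contractile and erythroid lists, which hold all of these genes but L1cam and Hspb1. For the list members the covariates thus contain the gene's own values, and their sign changes are no test. Of all 1231 genes called in wildtype PA2, 3 changed sign with the covariates. Depth limits genes under 0.248 CPM, where 3 reads are the floor.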
